A study of Mus musculus with 16 samples.

Results

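Collagen genes were followed in the prefrontal cortex of 4 mouse genotypes. They were taken as the genes whose symbol is Col, a number, a and a number, which gave 43 of the 23284 genes of the expression table. Emid2, an older symbol of the collagen gene Col26a1, does not match this pattern, and it averaged 1.27 FPKM. FPKM, the number of fragments scaled to transcript length and to the mapped fragments of the library, is a level per length, so levels of different genes can be set side by side.

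The study crossed mice with floxed alleles to the CamKIIα-Cre-93 line, whose Cre acts in forebrain excitatory neurons from the first weeks after birth. APC cKO mice were APC fl/fl and in those neurons lacked the adenomatous polyposis coli protein, a scaffold of the complex that degrades β-catenin (β-cat). In β-cat cOE mice 1 Ctnnb1 allele had a floxed exon 3 (ctnnb1 fl(ex3)/+), and its recombination leaves a stabilised β-cat. APC/β-cat cKO mice were APC fl/fl and ctnnb1 fl/fl, and so lacked both proteins there. Controls were littermates without Cre, pooled from the lines, and all mice were young adults of 2–3 months. The 16 libraries fall into 4 per genotype. The cells that are known to make most collagen in the brain, those of the meninges and vessels, are not targets of this Cre.

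Collagens are secreted proteins built from α chains that wind into a helix. Fibrillar collagens, such as type I and type III, form the fibres of the meninges, and the fibroblasts of the pia and arachnoid make them. Type IV collagen is the sheet of basement membranes, which in brain line vessels and the pial surface, and endothelial cells, pericytes and fibroblasts secrete it. FACIT collagens sit on fibrils, multiplexins carry fragments such as endostatin, and transmembrane collagens stay anchored in the cell that makes them, which can be a neuron.

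The levels of the 43 genes spanned from 0.0432 FPKM (Col4a4) to 21.5 FPKM (Col6a1) as means over 16 libraries. None was listed at 0 in any library. A mean of at least 1 FPKM was reached by 16 of them, and 3 reached 5 FPKM. The 25 with a mean of at least 0.5 FPKM entered the tests, and 18 did not. The 18 were Col2a1, Col3a1, Col4a3, Col4a4, Col4a6, Col5a3, Col6a3, Col6a4, Col6a5, Col6a6, Col7a1, Col9a1, Col10a1, Col13a1, Col14a1, Col17a1, Col20a1 and Col28a1, the highest of them Col3a1 at 0.459 FPKM. Type VI collagens held 33.7% of the summed FPKM, FACIT collagens 16.5%, transmembrane collagens 16.3%, fibrillar collagens 15.8%, type IV collagens 13.4%, multiplexins 1.51% and the other collagens 2.80%. Col6a1 alone held 27.02%, and together with Col25a1 39.9%. In the order of means Col6a1 was followed by Col25a1 (10.3 FPKM), Col4a2 (5.77), Col6a2 (4.67), Col4a1 (4.02), Col9a3 (3.40), Col1a2 (3.35) and Col9a2 (3.25), and after Col6a1 the ranges over libraries of each neighbouring pair overlapped. The tested collagen genes had a median coefficient of variation among libraries of 23.9%, against 10.8% over the 13978 genes tested. These medians were not matched for level, and only 3 collagen genes reached 5 FPKM. Whether collagen genes vary more than other genes of like level was not tested.

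**Figure D1:**
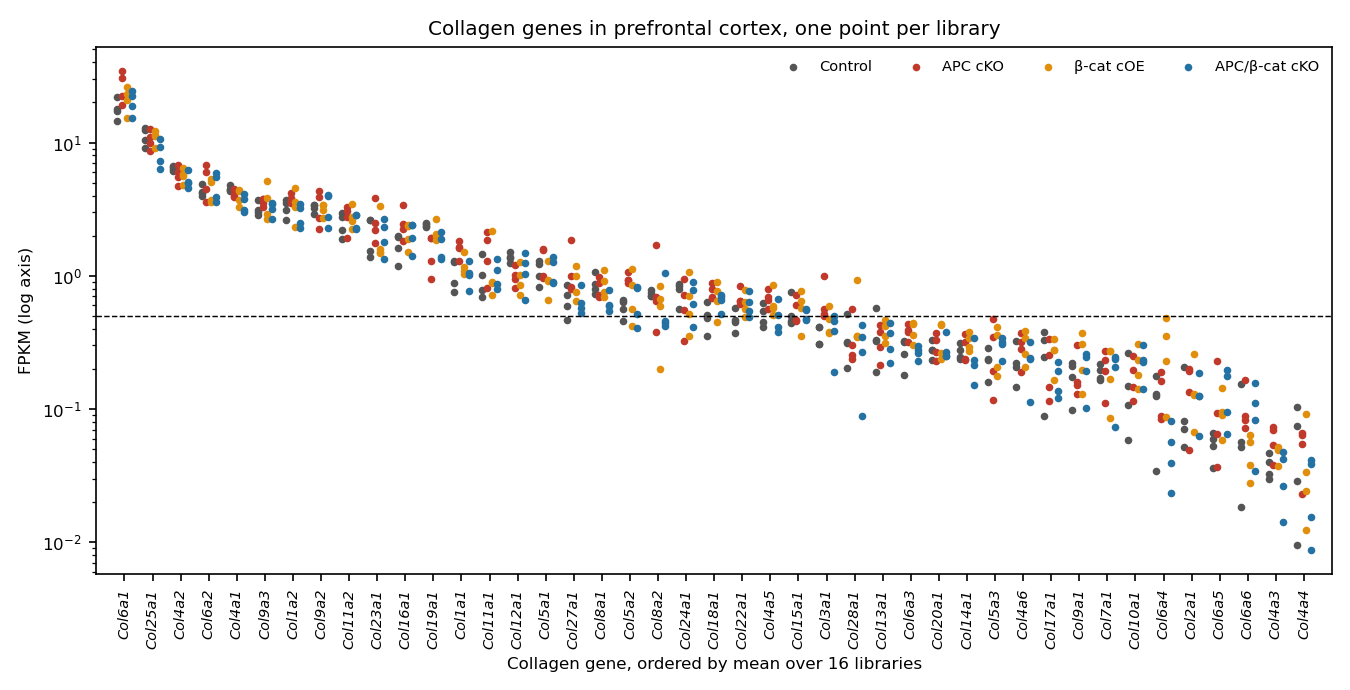
FPKM on a log axis for the 43 collagen genes, ordered by their mean, with 1 point per library coloured by genotype. The dashed line is the mean of 0.5 FPKM below which a gene was not tested; the libraries of Col6a1 lie above those of every other collagen gene, and in most genes the 4 colours overlap.

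Markers place these collagens in a cortical sample with meninges and vessels. The excitatory neuron genes Slc17a7 (395 to 532 FPKM) and Camk2a (559 to 718 FPKM) were high in every library, as the tissue label says. All 17 meningeal fibroblast markers, all 11 endothelial markers and all 10 mural cell markers passed the filter, among them Dcn at 8.45, Cldn5 at 17.8 and Pdgfrb at 4.02 FPKM. Of 9 choroid plexus markers 4 passed. The defining gene Ttr averaged 1.75 FPKM, while Kcne2 and Slc4a5 averaged 0.0457 and 0.0116 FPKM. In bulk tissue fewer cells of a type and less RNA per cell cannot be told apart. The targeted gene Apc was at 40.8 to 50.1 FPKM in controls and 38.8 to 49.5 FPKM in β-cat cOE mice, against 7.85 to 17.1 FPKM in APC cKO and 6.80 to 12.2 FPKM in APC/β-cat cKO mice. Ctnnb1 lay between 151 and 182 FPKM in every library, and its gene value does not show the floxed exons. From sex-linked transcripts 14 libraries came from males and 2 from females, namely replicate 1 of the controls and of APC cKO.

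Col4a1 and Col4a2 encode the α1 and α2 chains of the main basement membrane trimer, and lie head to head on chromosome 8. In the mm10 positions of the expression table Col4a1 runs from 11198423 to 11312826 and Col4a2 from 11312829 to 11449287. The first thus ends 3 bases before the second starts. In RefSeq (GRCm38.p6) the annotated starts are 21 bases apart, and the windows of 250 bases before to 50 bases after each start share 78 bases, from 11312777 to 11312854. Both windows are shown because the pair is divergent and its levels went together across libraries. Col4a1 is read on the minus strand (chr8:11312777-11313076) and Col4a2 on the plus strand (chr8:11312555-11312854). Capitals mark the CCAAT box (CCAAT) and the GC box (GGGCGG), each searched on both strands.
Col4a1: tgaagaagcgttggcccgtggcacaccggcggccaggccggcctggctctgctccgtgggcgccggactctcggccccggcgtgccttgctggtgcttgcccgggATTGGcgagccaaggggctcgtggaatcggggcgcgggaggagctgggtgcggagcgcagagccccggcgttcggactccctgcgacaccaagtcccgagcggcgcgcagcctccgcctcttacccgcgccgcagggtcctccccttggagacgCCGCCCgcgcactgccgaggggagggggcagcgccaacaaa
Col4a2: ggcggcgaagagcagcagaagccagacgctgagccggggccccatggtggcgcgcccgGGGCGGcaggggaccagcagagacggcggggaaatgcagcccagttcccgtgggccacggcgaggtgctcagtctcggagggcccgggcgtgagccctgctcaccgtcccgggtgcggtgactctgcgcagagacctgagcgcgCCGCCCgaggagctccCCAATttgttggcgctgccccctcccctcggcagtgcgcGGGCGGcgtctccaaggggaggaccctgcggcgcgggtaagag
The Col4a1 window holds 1 CCAAT and 1 GGGCGG, the Col4a2 window 1 and 3. The 78 shared bases hold 1 GGGCGG and no other of the motifs searched. Neither window holds TATAAA.

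Col1a2 encodes the α2 chain of type I collagen, and Col3a1 the chain of type III, which mixes with type I in soft tissue. Their windows differ in composition and are shown for that contrast, with GC contents of 61.0% and 37.7%. Col1a2 lies on chromosome 6 (chr6:4505368-4505667, plus strand) and Col3a1 on chromosome 1 (chr1:45311288-45311587, plus strand), both from RefSeq in GRCm38.p6. Capitals mark CCAAT and GGGCGG in Col1a2 and the TATA box (TATAAA) in Col3a1.
Col1a2: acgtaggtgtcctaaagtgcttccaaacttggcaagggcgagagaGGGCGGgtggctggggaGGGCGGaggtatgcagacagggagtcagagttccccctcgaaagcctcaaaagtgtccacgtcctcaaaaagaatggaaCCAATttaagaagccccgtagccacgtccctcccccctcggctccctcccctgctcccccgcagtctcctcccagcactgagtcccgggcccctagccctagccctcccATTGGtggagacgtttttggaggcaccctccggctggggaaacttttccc
Col3a1: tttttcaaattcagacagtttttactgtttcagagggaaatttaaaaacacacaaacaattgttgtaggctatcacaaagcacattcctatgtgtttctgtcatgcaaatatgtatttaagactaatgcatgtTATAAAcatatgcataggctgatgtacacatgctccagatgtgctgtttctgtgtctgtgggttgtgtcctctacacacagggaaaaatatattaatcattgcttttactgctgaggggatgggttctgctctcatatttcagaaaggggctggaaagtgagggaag
RefSeq windows were matched for 35 of the 43 genes, with 38 windows in all. Col1a1, Col2a1, Col4a3, Col5a2, Col9a3, Col12a1, Col14a1 and Col22a1 had none. GGGCGG was in 60.5% of the 38 windows and in 35.7% of all 32851 RefSeq windows. CCAAT was in 34.2% and 37.4%, and TATAAA in 13.2% and 13.6%. Of the letters that TCF/LEF factors, the partners of β-cat, bind, CTTTGAT was in 2.63% (Col9a2) against 3.73% of all windows. CTTTGAA was in 10.5% (Col6a2, Col9a1, Col13a1, Col15a1) against 5.14%. The median GC content was 59.8% in collagen windows and 52.7% in all. The last letters of these 2 motifs differ, so no match counted for both. A match is a description of letters and not a bound site.

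The comparisons of the genotypes asked whether collagen expression differed in mice with raised or lowered β-cat in excitatory neurons. At a Benjamini-Hochberg adjusted p under 0.05 in limma, 0 of the 25 collagen genes were called in each of the 6 comparisons. Few genes of any kind were called. In percent of the 13978 genes tested, the calls were 0.0429 for APC cKO against control, 0.0143 for β-cat cOE against control and 0.207 for APC/β-cat cKO against control. They were 0.215 for APC cKO against APC/β-cat cKO, 0.229 for β-cat cOE against APC/β-cat cKO and 0.0572 for APC cKO and β-cat cOE together against the other groups. Counts at an unadjusted p under 0.05 are therefore given by comparison, with the share of all genes that reached it in the same direction. These p-values measure the spread between libraries of one label, since the sample labels do not name separate animals. All 3 comparisons with control share the same control libraries, and all 3 with APC/β-cat cKO share those. Fold changes are on the log2(FPKM + 0.1) scale, which understates the change of low genes.

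In APC cKO against control, 7 collagen genes were higher at an unadjusted p under 0.05, which is 28% of those tested against 4.82% of all genes. They were Col1a1, Col5a2 and Col27a1 of the fibrillar class, Col6a1, the FACIT genes Col16a1 and Col22a1, and Col18a1, the source of endostatin. Lower was 1 gene, Col19a1, which is 4% against 5.19% of all genes. The median log2 fold change of the 25 genes was 0.19, and that of all genes tested was -0.0042, with 17 positive and 8 negative. The 8 fibrillar genes tested had a median of 0.38. The count of 8 genes in both directions lay between 4 (without control replicate 2) and 9 when single libraries were left out, and it was 5 without control replicate 4 or without APC cKO replicate 4.

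In β-cat cOE against control, 0 collagen genes were higher at an unadjusted p under 0.05 in limma, against 2.30% of all genes. Lower was 1, Col12a1, a FACIT collagen, against 2.77% of all genes. Its log2 fold change was -0.50 (SE 0.21, limma unadjusted p = 0.0324, adjusted p = 0.946). The median of the 25 genes was 0.05, against -0.0036 over all genes. Without β-cat cOE replicate 2 or 4, or control replicate 3 or 4, Col12a1 no longer reached an unadjusted p under 0.05 and the count was 0, and without β-cat cOE replicate 3 it was 3.

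In APC/β-cat cKO against control, 0 collagen genes were higher at an unadjusted p under 0.05 in limma, against 7.17% of all genes. Lower were 5, Col4a1, Col4a2, Col8a1, Col19a1 and Col25a1, which is 20% of those tested against 7.03% of all genes. The median of the 25 was -0.02, against 0.0031 over all genes. The count of 5 was 3 without control replicate 1 and without APC/β-cat cKO replicate 1, 2 or 4. All 3 type IV genes tested had negative values, with a median of -0.30.

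In APC cKO against APC/β-cat cKO, which share the loss of APC and differ in β-cat, 5 collagen genes were higher at an unadjusted p under 0.05 in limma (Col1a1, Col1a2, Col4a1, Col25a1 and Col27a1). That is 20% against 4.15% of all genes. Lower were 0, against 6.13% of all genes. The median was 0.25, against -0.00083 over all genes, and 22 of 25 values were positive. The count of 5 was 1 without APC/β-cat cKO replicate 4, 2 without APC/β-cat cKO replicate 1 or APC cKO replicate 4, and 7 without APC/β-cat cKO replicate 3. In β-cat cOE against APC/β-cat cKO, 2 were higher (Col8a1 and Col25a1), which is 8% against 5.04%, and 0 lower against 6.88%, with a median of 0.10. Without APC/β-cat cKO replicate 4 that count was 0. It was 1 without replicate 1, 3 or 4 of APC cKO, replicate 1 or 3 of β-cat cOE or of the controls, or replicate 1 of APC/β-cat cKO. With APC cKO and β-cat cOE together against control and APC/β-cat cKO, 5 were higher (Col1a1, Col4a5, Col5a2, Col6a1 and Col27a1). That is 20% against 3.68%, and 0 were lower against 5.16%, with a median of 0.16. This count was 2 without APC cKO replicate 3, APC/β-cat cKO replicate 1 or control replicate 2 or 3, and 3 without APC cKO replicate 1, APC cKO replicate 4 or β-cat cOE replicate 1.

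**Figure D2:**
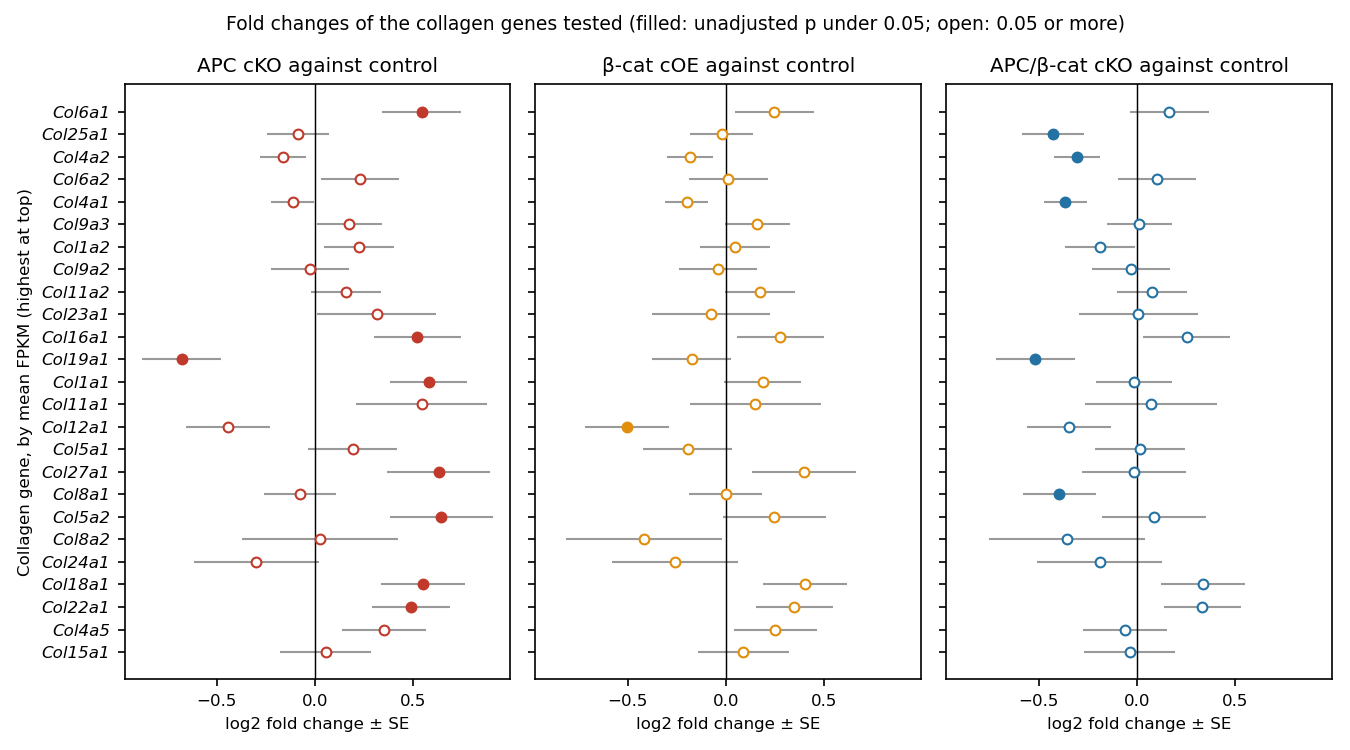
Log2 fold change (x axis, bars are standard errors) of the 25 tested collagen genes in each line against control, ordered by mean FPKM, with filled points for an unadjusted limma p under 0.05. In APC cKO 7 filled points lie to the right and Col19a1 to the left, in β-cat cOE the 1 filled point is Col12a1, and in APC/β-cat cKO the 5 filled points lie to the left.

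Among the fibrillar collagens, Col1a1, the α1 chain of type I collagen (chromosome 11), was at 1.30, 0.752, 0.878 and 1.28 FPKM in controls, 1.30, 1.63, 1.61 and 1.83 in APC cKO, 1.51, 1.02, 1.09 and 1.16 in β-cat cOE, and 0.771, 1.28, 1.05 and 1.02 in APC/β-cat cKO. The APC cKO libraries were all above those of APC/β-cat cKO, and the lowest of them was level with the highest control. Its log2 fold change in APC cKO was 0.58 against control (SE 0.20, limma adjusted p = 0.350, unadjusted p = 0.00920) and 0.59 against APC/β-cat cKO (SE 0.20, adjusted p = 0.295, unadjusted p = 0.00782). In APC/β-cat cKO against control it was near 0, with a 95% interval that reaches from -0.43 to 0.40.

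Col1a2 was at 2.65, 3.13, 3.74 and 3.55 FPKM in controls, 3.50, 3.86, 3.65 and 4.20 in APC cKO, 4.55, 3.30, 3.60 and 2.32 in β-cat cOE, and 2.29, 3.24, 3.48 and 2.50 in APC/β-cat cKO. The APC cKO libraries all exceeded those of APC/β-cat cKO and overlapped the controls. APC cKO exceeded APC/β-cat cKO by a log2 fold change of 0.41 (SE 0.18, limma adjusted p = 0.463). Over all libraries Col1a2 averaged 2.75 times the level of Col1a1 per length, although the chains meet in the same trimer.

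Col3a1 was at 0.415, 0.306, 0.310 and 0.412 FPKM in controls, 0.516, 0.562, 0.496 and 0.989 in APC cKO, 0.595, 0.470, 0.371 and 0.380 in β-cat cOE, and 0.189, 0.383, 0.456 and 0.497 in APC/β-cat cKO. The APC cKO libraries were all above the controls, and their highest value came from replicate 4. Because of its low mean Col3a1 was outside the main test. In a fit of all genes its log2 fold change in APC cKO against control was 0.65 (SE 0.25, limma unadjusted p = 0.0191). Col5a2, which joins type I fibrils, was at 0.454 to 0.659 FPKM in controls and 0.883 to 1.07 FPKM in APC cKO, with no overlap (log2 fold change 0.64, SE 0.26, limma adjusted p = 0.434). Col27a1, a fibrillar collagen best known from cartilage, was at 0.465 to 0.851 and 0.790 to 1.84 FPKM (0.63, SE 0.26, adjusted p = 0.438), with its highest value in APC cKO replicate 1. Without that library the log2 fold change of Col27a1 was 0.38 (limma unadjusted p = 0.136), and that against APC/β-cat cKO went from 0.65 to 0.39 (unadjusted p = 0.122). The remaining fibrillar genes tested, Col5a1, Col11a1, Col11a2 and Col24a1, averaged 0.684 to 2.63 FPKM and did not reach an unadjusted p under 0.05 in any of the 6 comparisons. Summed over the 11 fibrillar genes, the level was 10.5 to 12.5 FPKM in controls, 13.4 to 16.5 in APC cKO, 10.6 to 14.9 in β-cat cOE and 8.88 to 13.4 in APC/β-cat cKO.

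Both genes of the type IV pair had their highest mean level in controls. Col4a1 was at 4.45, 4.35, 4.81 and 4.39 FPKM in controls, 3.998, 4.45, 3.93 and 4.25 in APC cKO, 4.31, 3.31, 4.38 and 3.73 in β-cat cOE, and 3.01, 4.09, 3.78 and 3.12 in APC/β-cat cKO. The APC/β-cat cKO libraries were all below the controls, and those of the other lines overlapped them. The log2 fold change in APC/β-cat cKO against control was -0.36 (SE 0.11, limma adjusted p = 0.231, unadjusted p = 0.00417). It was -0.11 in APC cKO and -0.20 in β-cat cOE.

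Col4a2 was at 6.60, 6.30, 6.66 and 6.12 FPKM in controls, 4.71, 6.05, 5.50 and 6.84 in APC cKO, 5.77, 4.83, 6.41 and 5.66 in β-cat cOE, and 4.59, 4.95, 6.22 and 5.10 in APC/β-cat cKO. Of the APC/β-cat cKO libraries only replicate 3 reached the range of the controls. The log2 fold change was -0.30 (SE 0.12, limma adjusted p = 0.288). The mean level of Col4a2 was 1.43 times that of Col4a1. The other type IV pairs also lie head to head. Col4a6 ends 1343 bases before Col4a5 starts on the X chromosome, and Col4a4 ends 72 bases before Col4a3 starts on chromosome 1. Col4a5 averaged 0.577 FPKM, Col4a6 0.260 FPKM, and Col4a3 and Col4a4, known from the kidney glomerulus, 0.0438 and 0.0432 FPKM.

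Col6a1 and Col6a2, chains of the beaded microfilaments of type VI collagen, are neighbours on chromosome 10. Col6a1 was at 21.8, 17.8, 17.3 and 14.6 FPKM in controls, 22.2, 19.2, 34.5 and 30.3 in APC cKO, 26.4, 15.3, 20.96 and 23.3 in β-cat cOE, and 15.2, 22.4, 24.5 and 18.8 in APC/β-cat cKO. The ranges of the genotypes overlapped, with the highest levels in APC cKO replicates 3 and 4. The log2 fold change in APC cKO against control was 0.54 (SE 0.20, limma adjusted p = 0.386, unadjusted p = 0.0164).

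Col6a2 was at 4.87, 3.96, 4.27 and 4.17 FPKM in controls, 3.61, 4.48, 6.77 and 5.99 in APC cKO, 5.29, 3.58, 5.04 and 3.72 in β-cat cOE, and 3.57, 5.94, 5.56 and 3.89 in APC/β-cat cKO. All 4 ranges overlapped. Its mean was lower than that of Col6a1 by a ratio of 4.61. The third classical chain, Col6a3, was at 0.179 to 0.324 FPKM in controls, 0.319 to 0.437 in APC cKO, 0.300 to 0.445 in β-cat cOE and 0.228 to 0.298 in APC/β-cat cKO, and it was not in the main test. Fitted with all genes, it differed from control by 0.39 in APC cKO (SE 0.16, limma unadjusted p = 0.0291) and 0.40 in β-cat cOE (SE 0.16, unadjusted p = 0.0265).

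Among the FACIT collagens, Col19a1, which is known from subsets of cortical interneurons, was at 2.36, 2.48, 2.46 and 2.34 FPKM in controls, 0.950, 1.93, 1.30 and 1.93 in APC cKO, 1.999, 1.87, 2.65 and 2.05 in β-cat cOE, and 1.89, 1.39, 2.12 and 1.33 in APC/β-cat cKO. The controls lay close together and above every library of both lines without APC, while β-cat cOE replicate 3 exceeded them. The log2 fold change was -0.68 in APC cKO (SE 0.20, limma adjusted p = 0.310, unadjusted p = 0.00389) and -0.52 in APC/β-cat cKO (SE 0.20, adjusted p = 0.289). In β-cat cOE it was -0.17. Summed levels of the 6 inhibitory neuron markers were 862 to 1088 FPKM in controls, 810 to 907 in APC cKO and 906 to 1051 in APC/β-cat cKO, and their part in this result was not tested. Of this list Npy and Vip were lower in APC cKO at an unadjusted limma p under 0.05, and Vip in APC/β-cat cKO. That is 33.3% and 16.7%, against 5.19% and 7.03% of all genes. The list was mixed, with 3 positive and 3 negative log2 fold changes in APC cKO, and 2 and 4 in APC/β-cat cKO. Vip averaged 58.4 FPKM in controls, 48.3 in APC cKO and 43.6 in APC/β-cat cKO. Col9a2, Col9a3, Col12a1, Col16a1 and Col22a1 averaged 0.595 to 3.40 FPKM. Of these, Col22a1 did not overlap between controls (0.369 to 0.575 FPKM) and APC cKO (0.612 to 0.845 FPKM), with a log2 fold change of 0.49 (SE 0.20, limma adjusted p = 0.424). Col12a1 was at 1.25 to 1.52 FPKM in controls and 0.809 to 1.21 FPKM in APC cKO (-0.44, SE 0.21, adjusted p = 0.513).

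Col25a1, a transmembrane collagen made by neurons and found in amyloid plaques, was at 12.8, 12.4, 9.18 and 10.5 FPKM in controls, 8.63, 11.0, 12.6 and 9.94 in APC cKO, 9.07, 11.3, 11.4 and 12.3 in β-cat cOE, and 10.7, 6.36, 9.26 and 7.30 in APC/β-cat cKO. Of the APC/β-cat cKO libraries 2 were below all libraries of the other genotypes. The log2 fold change in APC/β-cat cKO was -0.43 against control (SE 0.16, limma adjusted p = 0.281, unadjusted p = 0.0165). Against APC/β-cat cKO it was 0.34 in APC cKO and 0.41 in β-cat cOE (SE 0.16 for each, adjusted p = 0.483 and 0.338). Without APC/β-cat cKO replicate 2 the Col25a1 value in APC cKO was 0.22 (limma unadjusted p = 0.185), and it kept an unadjusted p under 0.05 in 6 of the 16 fits that left out 1 library. Col23a1, another transmembrane collagen, averaged 2.16 FPKM and did not reach an unadjusted p under 0.05 in any of the 6 comparisons.

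**Figure D3:**
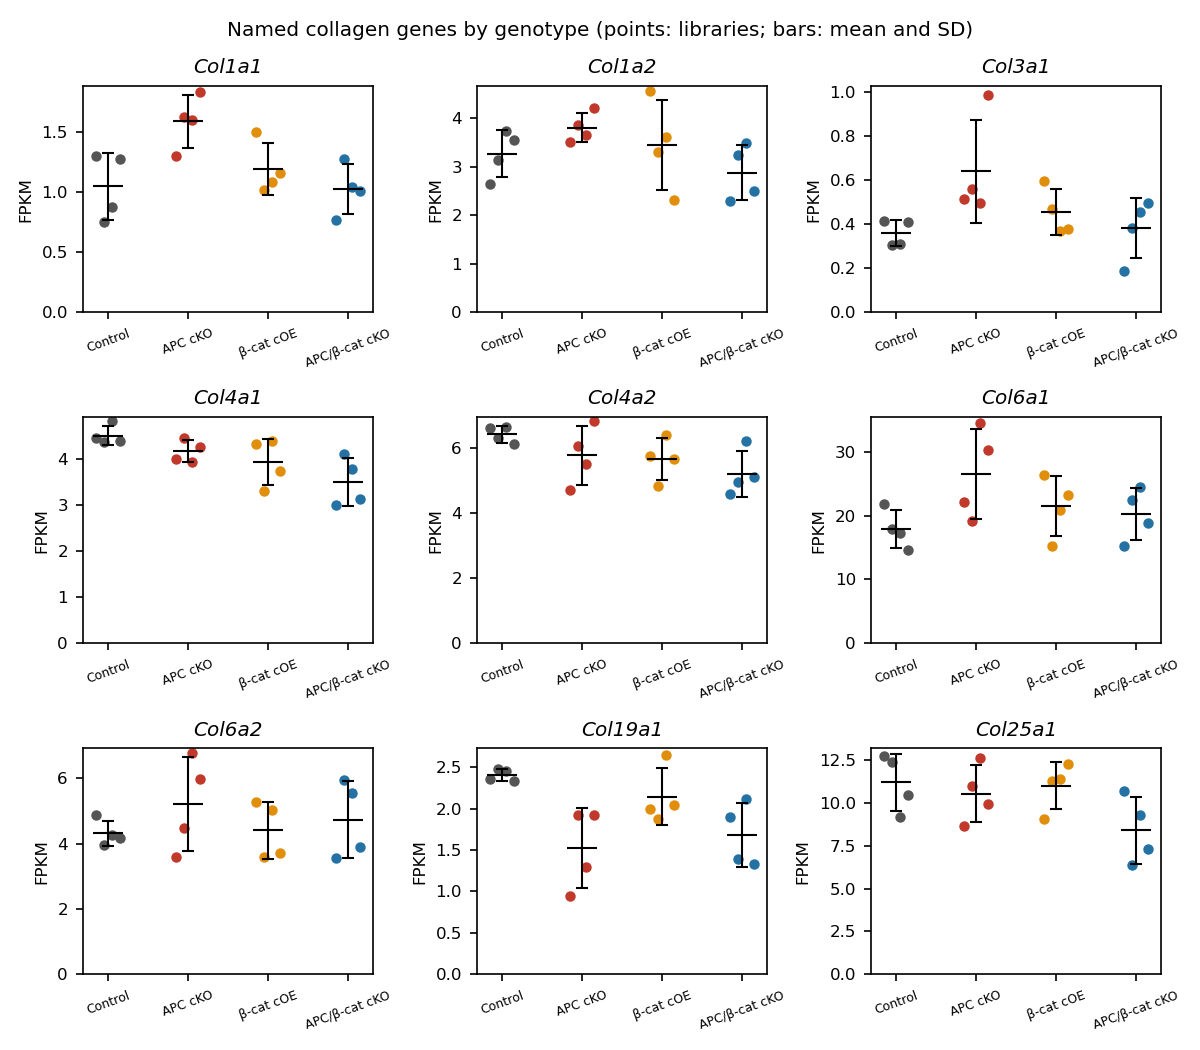
FPKM of 9 collagen genes by genotype, with 1 point per library and bars for the mean and SD of 4 libraries. The Col19a1 controls lie between 2.34 and 2.48 FPKM, Col1a1 and Col3a1 are highest in APC cKO, and Col4a1 and Col25a1 have their lowest means in APC/β-cat cKO.

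The multiplexin Col18a1, a component of vascular and pial basement membranes, was at 0.355 to 0.635 FPKM in controls and 0.679 to 0.886 FPKM in APC cKO without overlap (log2 fold change 0.55, SE 0.21, limma adjusted p = 0.414). Its relative Col15a1 averaged 0.551 FPKM and had a log2 fold change of 0.05 in that comparison. Col8a1, a short-chain collagen of vessel walls, was at 0.734 to 1.06 FPKM in controls and 0.549 to 0.784 FPKM in APC/β-cat cKO (-0.39, SE 0.18, adjusted p = 0.351). Col7a1, Col10a1 and Col28a1 averaged 0.195, 0.190 and 0.364 FPKM, and the table's locus for Col10a1 is wider than the gene, so its value is uncertain.

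Genes that work with collagens were counted in the same way. Of the 29 collagen processing genes in the table, which include the prolyl and lysyl hydroxylases, the chaperone Serpinh1 and the lysyl oxidases, 25 were tested and 0 were called by limma in the 6 comparisons. In APC cKO against control 1 of them, the procollagen peptidase Adamts3, was higher at an unadjusted p under 0.05 and 0 were lower, so the share of 4% higher was near the 4.82% of all genes. In β-cat cOE the counts were 2 (Fkbp10 and Ppib) and 1 (Adamts2), which is 8% and 4% against 2.30% and 2.77% of all genes. In APC/β-cat cKO they were 1 (Ppib) and 0, which is 4% and 0% against 7.17% and 7.03%. Of 16 laminins, nidogens and other basement membrane partners of type IV collagen 12 were tested and 0 were called by limma. At an unadjusted p under 0.05 the laminin chains Lama5 and Lamb1 were higher in APC cKO against control (16.7% of the 12, against 4.82% of all genes), and 0 genes of the list reached that p in APC/β-cat cKO against control. Of 11 collagen receptors 7 were tested and 0 were called by limma. Ddr1, a receptor kinase for collagen, was higher at an unadjusted p under 0.05 in APC cKO and in β-cat cOE against control, Gpr56, a receptor for type III collagen, in APC cKO, and the integrin subunit Itgb1 in β-cat cOE. Each count of 2 is 28.6% of the 7, against 4.82% and 2.30% of all genes, but in APC cKO 5 of the 7 receptors had negative values and the median log2 fold change was -0.08. In APC/β-cat cKO the count was 0 in both directions. The median log2 fold change of the processing genes against control was 0.10 in APC cKO, -0.01 in β-cat cOE and -0.01 in APC/β-cat cKO.

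Marker levels of the meninges and vessels are set beside these values. The summed level of the 17 meningeal fibroblast markers was 123 to 188 FPKM in controls, 157 to 195 in APC cKO, 133 to 218 in β-cat cOE and 114 to 188 in APC/β-cat cKO. In APC cKO against control 4 of 17 (Aebp1, Aldh1a2, Fmod and Slc6a13) were higher at an unadjusted p under 0.05, which is 23.5% against 4.82% of all genes, and 0 were called by limma. Of the 17 log2 fold changes 10 were positive and 7 negative. In APC cKO against APC/β-cat cKO 5 of the 17 were higher at that p (29.4% against 4.15% of all genes), with 13 positive and 4 negative. With APC cKO and β-cat cOE together against the other groups 6 were higher (35.3% against 3.68%), with 12 positive and 5 negative. In β-cat cOE against APC/β-cat cKO 1 was higher (5.88% against 5.04%). In these 3 comparisons 0 were lower at that p and 0 were called. The mean of Mgp, the highest of these markers, was 50.8 FPKM in controls and 40.3 FPKM in APC cKO. The endothelial sum was 90.6 to 106 FPKM in controls, 68.5 to 90.6 in APC cKO, 92.5 to 103 in β-cat cOE and 86.6 to 108 in APC/β-cat cKO, with 4 of 11 markers (Abcb1a, Flt1, Ly6c1 and Slco1a4) lower in APC cKO at an unadjusted p under 0.05, which is 36.4% against 5.19% of all genes, and 0 called. The mural sum was 52.6 to 59.1 in controls, 42.9 to 59.2 in APC cKO, 53.4 to 64.5 in β-cat cOE and 47.4 to 61.8 in APC/β-cat cKO. Of the 10 mural markers Rgs5 was lower at an unadjusted p under 0.05 in APC cKO and in APC/β-cat cKO. That is 10% in each, against 5.19% and 7.03% of all genes. The choroid plexus sum was 3.42 to 6.94 FPKM in controls, 3.65 to 11.5 in APC cKO, 3.39 to 6.83 in β-cat cOE and 2.82 to 7.42 in APC/β-cat cKO. Of the 4 genes tested Kl was higher in APC cKO against control at an unadjusted p under 0.05. That is 25% against 4.82% of all genes, with 2 values positive and 2 negative. The part of these cells in the collagen differences was not tested.

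Across the 16 libraries, 16 relations were computed on log2(FPKM + 0.1), with permutation p-values from 100000 resamples and Benjamini-Hochberg adjustment over the 16. The libraries share a preparation and a scaling, and genotype was not removed unless stated. By r the relation passed an adjusted p under 0.05 in 4 of the 7 pairs of collagen genes of one class. By rho it passed in these and in Col1a1 with Col1a2. For Col1a1 and Col3a1 r was 0.82 and rho 0.75 (adjusted permutation p = 0.00032 and 0.012). For Col6a1 and Col6a2 r was 0.77 and rho 0.71 (0.0040 and 0.012), and for Col4a1 and Col4a2 0.75 and 0.71 (0.0040 and 0.012). For Col3a1 and Col5a2 r was 0.68 and rho 0.67 (0.0057 and 0.0187). Without the 2 libraries farthest from the median of the first gene, r was 0.74, 0.72, 0.66 and 0.52. Centred on the genotype means it was 0.68, 0.79, 0.60 and 0.48.

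Col1a1 and Col1a2 had r = 0.55 (adjusted permutation p = 0.0764) and rho = 0.59 (0.0460), and r was 0.45 without the 2 farthest libraries. The pairs Col4a5 with Col4a6 and Col4a3 with Col4a4 had r = 0.45 and 0.32, rho = 0.44 and 0.37 (adjusted permutation p of r = 0.146 and 0.291, of rho = 0.186 and 0.270), and r was 0.42 and 0.17 without the 2 farthest libraries. Between classes, Col1a1 and Col4a1 had r = 0.35 and rho = 0.29 (0.256 and 0.368), and 0.29 without the 2 farthest.

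The mean of Col1a1, Col1a2 and Col3a1 followed the mean of the meningeal fibroblast markers, with r = 0.72 and rho = 0.71 (adjusted permutation p = 0.0057 and 0.012). It was 0.76 without the 2 farthest libraries (APC cKO replicate 4 and APC/β-cat cKO replicate 1) and 0.73 with genotype means removed. Without APC/β-cat cKO replicate 1 alone r was 0.60 and its adjusted permutation p 0.0595. With endothelial markers r was -0.02 (rho 0.06, adjusted permutation p = 0.940 and 0.840) and 0.54 with genotype means removed. With mural markers it was 0.16 (rho 0.14, 0.597 and 0.633) and 0.66 with genotype means removed. Without the 2 farthest libraries these were -0.15 and -0.08. With choroid plexus markers r was 0.51 (rho 0.36, 0.103 and 0.270) and 0.34 with genotype means removed. Without APC cKO replicate 2 or β-cat cOE replicate 1 this r was 0.60 (adjusted permutation p = 0.0409 and 0.0432). It was 0.07 without the same 2 farthest libraries, so this relation rests on them. With the number of genes listed at 0, the nearest measure of depth in these files, r was -0.23 (rho -0.26, 0.448 and 0.401) and -0.23 without those 2.

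The mean of Col4a1 and Col4a2 had r = 0.45 with endothelial markers (rho 0.44, adjusted permutation p = 0.146 and 0.186), 0.38 with mural markers (rho 0.35, 0.231 and 0.273) and 0.34 with meningeal markers (rho 0.15, 0.256 and 0.633). Without the 2 farthest libraries r was 0.50, 0.42 and -0.09, so the last of these rests on them, and with genotype means removed 0.72, 0.51 and 0.32.

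**Figure D4:**
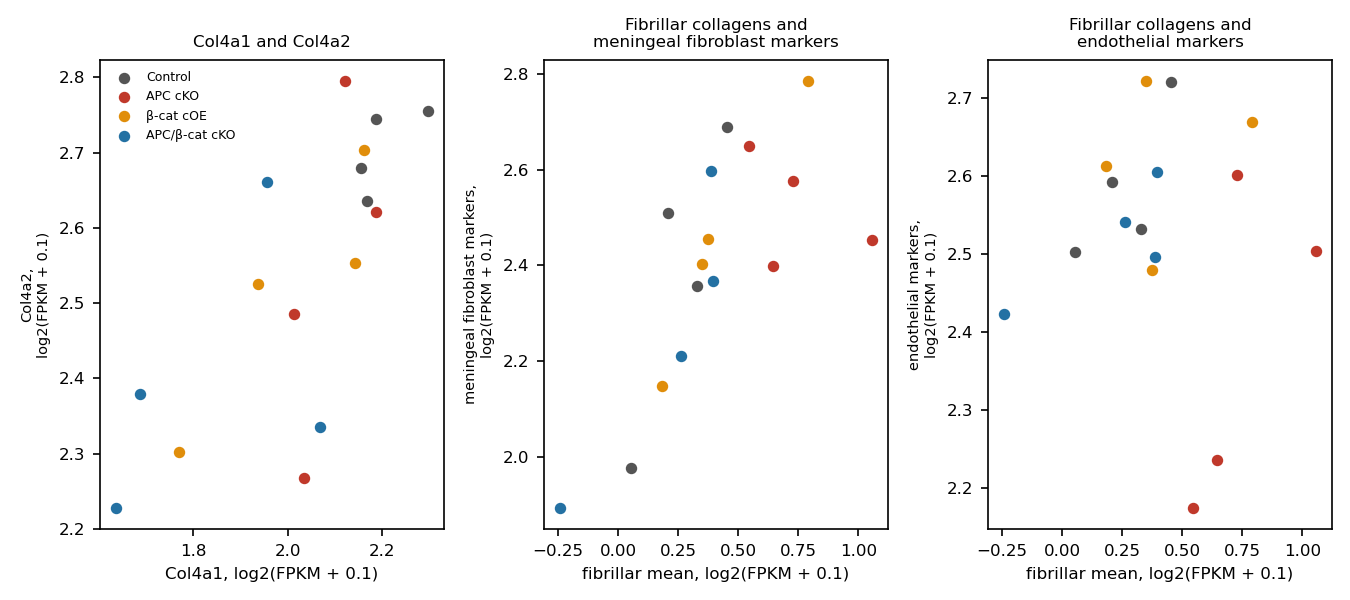
Scatter plots over 16 libraries, coloured by genotype, of Col4a1 against Col4a2 (left) and of the mean of Col1a1, Col1a2 and Col3a1 against the means of 17 meningeal fibroblast (middle) and 11 endothelial markers (right), all on log2(FPKM + 0.1). Points rise together in the left and middle plots, and in the right plot 2 APC cKO libraries lie apart at the bottom.

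Of the 13953 tested genes that are not collagens, the 10 with the highest r with the mean of Col1a1, Col1a2 and Col3a1 over 16 libraries were Cp (0.85), Aldh1a2 (0.84), Emilin1 (0.81), Cdk2 (0.81), Rbm45 (0.80), Polm (0.80), Stat2 (0.76), Slc6a13 (0.76), Rhoj (0.76) and Fbln5 (0.76). Aldh1a2, a retinoic acid synthase, and Slc6a13, a GABA and taurine transporter, were in the meningeal list. Emilin1 and Fbln5 are elastic fibre proteins. These values describe the libraries and carry no test.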

How the data were processed

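The authors made TruSeq stranded mRNA libraries from prefrontal cortex, mapped paired-end reads to mm10 with TopHat2 (2.0.10 in the submitters' processing notes), and made expression values with Cufflinks2; Cuffdiff (2.1.1) is also named there. The deposited table holds log2 values, read as log2(FPKM + 1) because FPKM times the median transcript length in kilobases then sums to 592239 to 627186 per library, against 5279898 to 5871089 for natural logs, which exceeds what FPKM allows. The design had assumed plain FPKM, so values were turned back into FPKM. Depth is unknown, and 5726 to 6649 genes were at 0.

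Libraries were grouped by their genotype label. The test was limma 3.58.1 (R 4.3.3; lmFit, contrasts.fit, eBayes with trend) on log2(FPKM + 0.1) for the 13978 genes averaging 0.5 FPKM or more, all 4 genotypes in 1 fit, adjusted over all genes. It was tested on simulated data. Correlations used Python 3.11.15. Alternatives changed the pseudocount, filter, scaling, trend, samples, sex and blocks. Values in every library were given for 8 listed collagen genes, for the 5 highest by mean and for any with an unadjusted p under 0.01. Collagen genes and lists were chosen with earlier results of these data known. Astrocyte, oligodendrocyte and neuron marker lists were also counted. Results for a few listed genes are not reported here.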

Additional observations from a re-analysis of the deposited data

Results flagged for a closer look

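In 4 of 100 groups of 4 libraries, 1 library stood apart from the other 3, where chance gives about 5. Each value is the gap to the nearest library as a share of the group's range, all above the critical value of Dixon's test at 95%. Col8a2, a short-chain collagen, reached 0.940 in APC/β-cat cKO, where replicate 2 was at 1.04 FPKM and the others at 0.423 to 0.460 FPKM. Col11a1, a fibrillar collagen, reached 0.871 in β-cat cOE, where replicate 4 was at 2.18 FPKM and the others at 0.717 to 0.906 FPKM. Col22a1 reached 0.835 in APC cKO, where replicate 4 was at 0.845 FPKM and the others at 0.612 to 0.650 FPKM. Col23a1 reached 0.937 in β-cat cOE, where replicate 1 was at 3.32 FPKM and the others at 1.47 to 1.59 FPKM. All 4 libraries were the highest of their group.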

How the results depend on the processing

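The count of 0 called collagen genes held in all 6 comparisons under all 167 alternatives run. Single genes were followed only in comparisons where their unadjusted p in the main fit was under 0.05. They were thus picked for a large effect, so a sign that holds is no further support for them. None of their 707 alternative values changed sign or passed the threshold. The lowest adjusted limma p among them was 0.0906 (Col25a1 in APC/β-cat cKO against control, without APC/β-cat cKO replicate 1). With the title number as a replicate block the count was 0 in each comparison, and with the number in the column headers as a block, chosen after seeing the data, it was also 0. Libraries with the same title number did not clearly deviate together. The r of their deviations ran from -0.22 to 0.32, with 4 of 21 pairs over 0.1, and 5 of 16 libraries were closest to their own number. The numbers thus gave no clear pairing of the samples, but low r cannot exclude one. The title block left 2 collagen genes at an unadjusted p under 0.05 in APC cKO against control in place of 8, 2 in place of 5 against APC/β-cat cKO, and 1 in place of 5 in the elevated lines against the rest. Without a filter these counts were 10, 9 and 10 of 43 genes, and with a filter at 2 FPKM they were 2, 3 and 1 of 11 genes. In APC cKO against APC/β-cat cKO quantile scaling left 2 and sex as a covariate 3. Leaving out both female libraries, also chosen afterwards, gave 7, 4 and 4. For correlations 291 alternatives kept their sign and side of the threshold, 5 moved past it, 2 fell short of it and 6 changed sign. The r of fibrillar and endothelial means became positive without control replicate 3 (0.000832), APC cKO replicates 1, 3 and 4 (0.069, 0.10 and 0.00229) or β-cat cOE replicate 4 (0.010), within a range from -0.15 to 0.10, and that of fibrillar and mural means became negative without β-cat cOE replicate 1 (-0.015), with 0.33 as its highest value. Without APC/β-cat cKO replicate 1, r of Col3a1 and Col5a2 was 0.59 (adjusted permutation p = 0.0595). Depth is unknown, which limits what can be said of genes below 0.5 FPKM.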

Other observations

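Type VI genes on chromosome 9 stood below the level tested. Col6a4, Col6a5 and Col6a6, whose chains can take the place of the third type VI chain, start 14.9, 15.1 and 15.2 Mb from the start of Ctnnb1, the gene whose floxed alleles 2 of the lines carry, and Col7a1 starts 12 Mb from it. Col6a4 was at 0.0341, 0.125, 0.176 and 0.131 FPKM in controls, 0.0844, 0.162, 0.191 and 0.0885 in APC cKO, 0.354, 0.229, 0.0871 and 0.486 in β-cat cOE, and 0.0396, 0.0236, 0.0569 and 0.0818 in APC/β-cat cKO. The β-cat cOE libraries were all above those of APC/β-cat cKO, with 0.0871 and 0.0818 FPKM as the nearest values. Fitted with all genes, the log2 difference in Col6a4 between these lines was 1.26 (SE 0.31, limma unadjusted p = 0.000998). That between β-cat cOE and control was 0.77 (SE 0.31, unadjusted p = 0.0248). The first was the lowest unadjusted p of any collagen gene below the filter. In that fit 896 of 19443 genes were higher in β-cat cOE than in APC/β-cat cKO at an unadjusted p under 0.05. In the same comparison Col6a5 was at -0.22, Col6a6 at -0.39 and Col7a1 at 0.04. Col6a5 was higher in APC/β-cat cKO than in control by 0.57 (SE 0.25, unadjusted p = 0.0368), and Col6a6 averaged 0.0791 FPKM.

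In the direct comparison of the elevated lines, Col19a1 was the 1 collagen gene at an unadjusted p under 0.05, lower in APC cKO than in β-cat cOE by a log2 value of -0.51 (SE 0.20, limma adjusted p = 0.540). That is 1 of 25 genes, and 550 of all 13978 genes were lower at that p. Without APC cKO replicate 1 the Col19a1 value was -0.31 (limma unadjusted p = 0.102). In APC cKO against control, the astrocyte genes Gfap and Gja1 were higher and the myelin gene Mbp lower at an unadjusted p under 0.05, as were Npy and Vip of the inhibitory neuron list, and 0 of the 8 excitatory neuron markers reached it in limma. None of these genes was called at an adjusted p under 0.05.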
